A study of Mus musculus with 12 samples.

Results

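Krt14, Krt15, Krt16 and Krt17 encode acidic (type I) keratins of basal and stressed epithelium, and their signal was followed through 12 arrays of sorted mouse prostate cells. The 4 genes were taken by symbol from the probe sets that carry a single gene symbol, keeping the brightest per gene. Each of them had 1 such probe set, and together they are 4 of the 22180 genes represented in this way. The cells came from wild-type, hormone-naïve male mice. Before division into gates they had been cleared of cells bearing CD45, CD31 or Ter119, which mark blood, endothelial and erythroid cells. The Sca1-high gate held Sca1-high, CD49f-positive cells, the basal gate Sca1-intermediate, CD49f-positive cells, and the luminal gate cells low for both. Presence or absence of the surface protein LY6D split every gate into LY6D+ and LY6D- cells, for 6 groups of 2 libraries. Mouse 5 gave a library to every group. The second library of each group came from mouse 1 for Sca1-high, mouse 3 for basal and mouse 4 for luminal cells. Animal age and strain are not given in the sources used here.

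Keratins build the intermediate filaments of epithelial cells as pairs of a type I and a type II chain. Krt14 pairs with Krt5 in the basal layer of stratified and pseudostratified epithelia, prostate included, and Krt15 is a second type I chain of basal cells. Krt16 and Krt17 are best known from wounded or stressed skin, where they appear with the type II chains of the Krt6 group, and Krt8 with Krt18 is the pair of simple and luminal epithelium. Krt14, Krt16 and Krt17 are alike in sequence, and whether their probes tell them apart was not tested here.

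Values are log2 signals as deposited, so 1 unit is a factor of 2. Group values are means ± SD (n = 2), gate values means ± SD over 4 libraries of 2 mice (n = 4), and differences log2 ± SE from limma fitted across 20135 genes, with a Benjamini-Hochberg adjusted p and a threshold of 0.05. Libraries of a mouse were treated as independent, which they are not, so p-values do not measure the spread between mice. Transcript of the sort gene Ly6d did not follow the sort. The LY6D+ minus LY6D- difference of Ly6d within a mouse was 0.58 in mouse 1 and -2.67 in mouse 5 of the Sca1-high gate, 1.08 in mouse 3 and -0.06 in mouse 5 of the basal gate, and -0.30 in mouse 4 and 0.58 in mouse 5 of the luminal gate. LY6D+ and LY6D- therefore stand for the classes in the labels. The LY6D+ Sca1-high library of mouse 5 stood apart. Its Krt8 signal was 6.48 and its Krt18 signal 5.30, against 8.45 or more and 10.02 or more in the other 11 libraries. The gate names were set against marker lists. Of 15 basal markers tested, 13 were higher in basal than in luminal cells, with a median of 1.00 and 1 called. One of them, Itga6, encodes CD49f, on which the gates were sorted. Of 11 luminal markers, 4 were higher in basal cells, with a median of -0.38 and 1 called lower. Over all genes 45.8% were higher, 0.417% were called and the median was -0.03. Trp63 and Krt8 were added after their values were seen. Trp63, the master regulator of basal epithelium, averaged 4.91 ± 0.12 in basal and 4.55 ± 0.41 in luminal cells, a difference of 0.36 ± 0.21 (adjusted p = 0.701, limma). Krt8 averaged 10.09 ± 0.88 in basal and 10.11 ± 0.39 in luminal cells, so it did not separate them. Krt5 is not analysed here, since it had no probe set of its own.

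Signal of all 4 keratins was highest in the basal gate, and that of Krt16 rose past the threshold against the luminal gate. Krt16, the wound-associated chain, had 9.82 and 8.57 in LY6D+ and 8.62 and 9.06 in LY6D- basal cells, against 6.32 and 6.95 in LY6D+ and 3.04 and 4.77 in LY6D- luminal cells (mice 3 and 5, then mice 4 and 5). Every basal library lay above every luminal library. The difference was 3.75 ± 0.53, or 13.5-fold, with an adjusted p of 0.0269 (limma). Krt16 was thus 1 of 84 genes called between these gates, which is 0.417% of the genes tested, and 1 of 28 called higher in basal cells, which is 0.139%. The count of 84 was 255 without the LY6D- luminal library of mouse 4 and 15 without the LY6D+ basal library of mouse 3. In bulk samples such as these, fewer cells of a type and less RNA per cell cannot be told apart.

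Krt14, the classical basal keratin, had 11.65 and 11.69 in LY6D+ and 10.19 and 11.47 in LY6D- basal cells, against 9.87 and 10.31 in LY6D+ and 4.98 and 6.99 in LY6D- luminal cells. The gates touched for this gene, because the LY6D+ luminal library of mouse 5 lay above the LY6D- basal library of mouse 3. Its difference of 3.21 ± 0.64 (9.28-fold, 95% interval 1.78 to 4.65) had an adjusted p of 0.0794 (limma).

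Krt15 had 11.44 and 11.73 in LY6D+ and 9.99 and 11.40 in LY6D- basal cells, against 9.18 and 9.72 in LY6D+ and 5.89 and 6.41 in LY6D- luminal cells. Krt17 had 12.42 and 12.51 in LY6D+ and 11.25 and 12.51 in LY6D- basal cells, against 10.48 and 11.18 in LY6D+ and 6.56 and 7.86 in LY6D- luminal cells. For both genes the lowest basal library lay above the highest luminal one. The difference was 3.34 ± 0.72 (10.1-fold, adjusted p = 0.109) for Krt15 and 3.15 ± 0.63 (8.87-fold, adjusted p = 0.0801) for Krt17 in limma. Libraries did not overlap between the gates for 3 of the 4 keratins, against 2.58% of all genes tested in that direction. An exact two-sided permutation test of 4 libraries against 4 gave p = 0.0286 for Krt15, Krt16 and Krt17, the smallest it can give, and p = 0.0571 for Krt14. Adjusted over the 12 exact tests of 4 genes and 3 gate pairs, these were 0.0857 and 0.114.

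The Krt16 call rests on few animals. With mouse as a fixed block, where gate differences come from mouse 5 alone, the basal minus luminal difference of Krt16 was 2.96 with an adjusted p of 0.171 (limma), and those of Krt14, Krt15 and Krt17 were 2.93, 3.50 and 2.99. Leaving out any 1 of 4 libraries (LY6D+ luminal of mouse 4 or mouse 5, LY6D+ basal of mouse 3, LY6D- basal of mouse 5) ended the Krt16 call at adjusted p values of 0.0733 to 0.0892, with differences of 3.44 to 3.91. In the other direction, leaving out either LY6D+ Sca1-high library, which takes no part in the difference itself, brought Krt14, Krt15 and Krt17 to adjusted p values of 0.0447, 0.0427 and 0.0427.

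**Figure D1:**
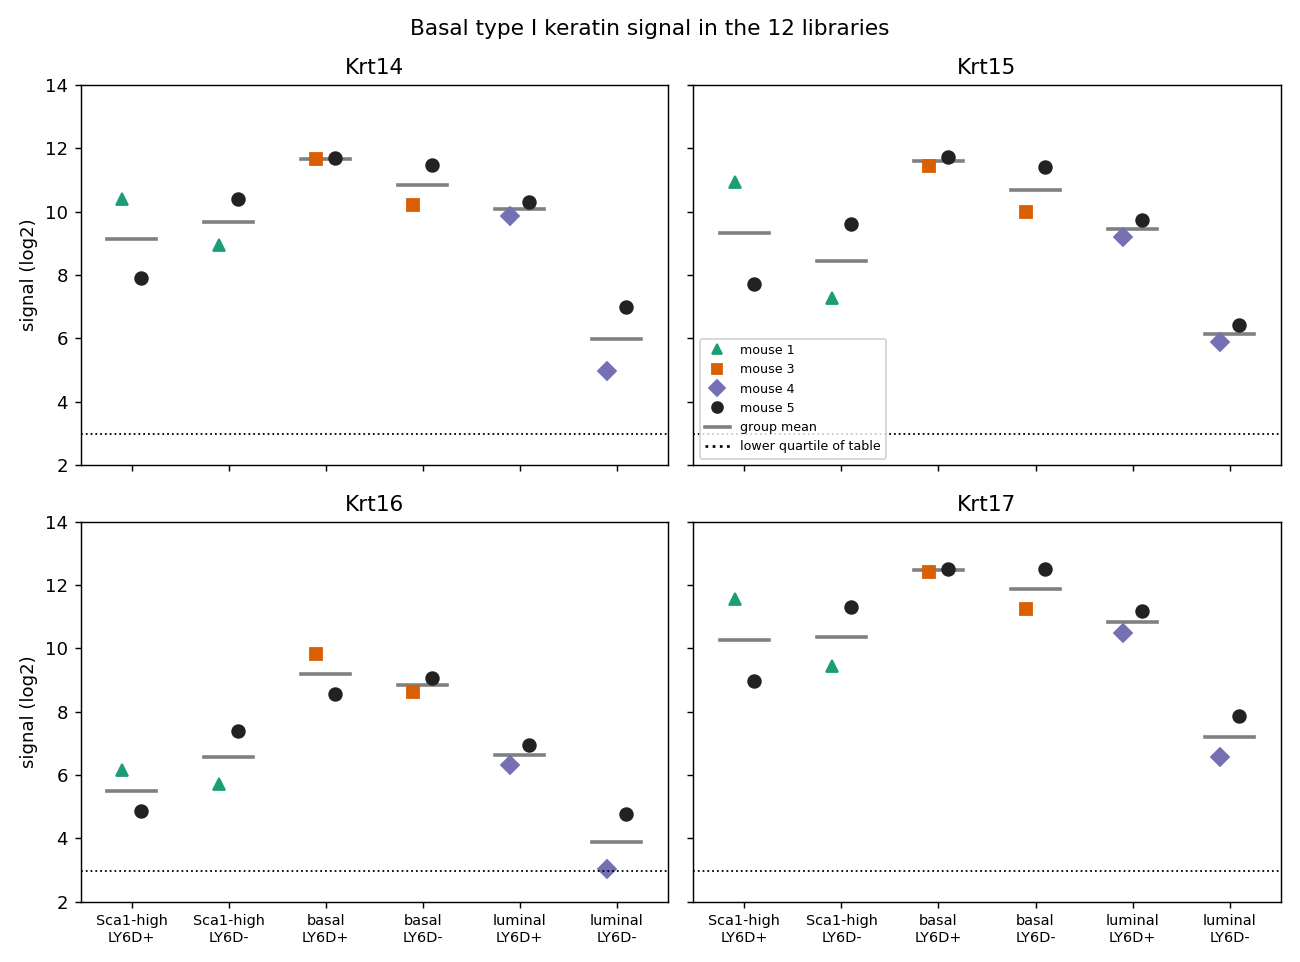
Log2 signal of Krt14, Krt15, Krt16 and Krt17 (vertical axis) in the 12 libraries by group (horizontal axis); symbols are mice, grey bars group means, and the dotted line the lower quartile of the whole table (2.98). LY6D- luminal cells are lowest for all 4 genes, and the Krt16 value of mouse 4 there (3.04) sits at the dotted line.

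Within the luminal gate all 4 keratins had higher values in LY6D+ than in LY6D- cells, and none of these differences passed the test. LY6D+ luminal cells had 10.09 ± 0.31 for Krt14, 9.45 ± 0.38 for Krt15, 6.63 ± 0.45 for Krt16 and 10.83 ± 0.50 for Krt17, against 5.98 ± 1.42, 6.15 ± 0.37, 3.90 ± 1.22 and 7.21 ± 0.92 in LY6D- luminal cells. Both mice showed the same direction for every gene. The difference for Krt14 was 4.89 in mouse 4 and 3.32 in mouse 5. For Krt17 it was 3.92 in mouse 4 and 3.32 in mouse 5, for Krt15 it was 3.30 and 3.31, and for Krt16 it was 3.28 and 2.18 in the same order of mice. The fitted differences were 4.11 ± 0.90 (17.2-fold) for Krt14, 3.62 ± 0.89 (12.3-fold) for Krt17, 3.31 ± 1.02 (9.89-fold) for Krt15 and 2.73 ± 0.75 (6.63-fold) for Krt16.

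Adjusted p values were 0.889 for Krt14, 0.938 for Krt17 and 1.00 for Krt15 and Krt16 (limma). No gene of the 20135 passed, which is 0% called, while 716 had an unadjusted p under 0.05 in limma. The unadjusted p values of the keratins were 0.00126 for Krt14, 0.00264 for Krt17, 0.00510 for Krt16 and 0.00962 for Krt15. By absolute size of the difference, Krt14 was in place 6 of 20135, Krt17 in place 11, Krt15 in place 18 and Krt16 in place 37. An LY6D+ minus LY6D- difference above 2 units in both mice, a limit chosen after the values were seen, was found for 16 genes (0.0795%), and 4 of the 16 were the keratins. LY6D+ lay above LY6D- in all libraries for 4 of 4 keratins, against 15.4% of all genes. Leaving out single libraries kept the Krt14 difference between 3.10 and 5.11 and that of Krt16 between 1.87 and 3.59.

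In LY6D- cells the basal gate stood far above the luminal gate, and in LY6D+ cells the fitted gap was smaller. The basal minus luminal difference in LY6D- cells was 4.85 ± 0.90 for Krt14, 4.55 ± 1.02 for Krt15, 4.94 ± 0.75 for Krt16 and 4.67 ± 0.89 for Krt17. In LY6D+ cells it was 1.58 ± 0.90, 2.13 ± 1.02, 2.56 ± 0.75 and 1.63 ± 0.89 for the same genes in the same order. None passed limma's threshold. Adjusted p values were 0.143, 0.231, 0.0720 and 0.154 in LY6D- cells, where 0.0596% of genes were called, and 0.589 or more in LY6D+ cells, where 0.0298% were. With mouse as a fixed block the genes called were 7 in place of 12 in LY6D- cells and 37 in place of 6 in LY6D+ cells, with no keratin of the 4 among them.

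In the basal gate no LY6D difference of the 4 keratins passed the test. The LY6D+ and LY6D- basal means were 11.67 ± 0.03 and 10.83 ± 0.90 for Krt14, 11.58 ± 0.20 and 10.69 ± 1.00 for Krt15, 9.20 ± 0.88 and 8.84 ± 0.31 for Krt16, and 12.46 ± 0.06 and 11.88 ± 0.89 for Krt17. In mouse 3 LY6D+ cells were higher for each gene, by 1.45, 1.46, 1.19 and 1.17 from Krt14 to Krt17. In mouse 5 the differences were 0.23 for Krt14, 0.33 for Krt15 and -0.49 for Krt16, and Krt17 stood at 12.51 in both classes. The fitted differences were 0.84 ± 0.90, 0.89 ± 1.02, 0.35 ± 0.75 and 0.58 ± 0.89 from Krt14 to Krt17, each with an adjusted p of 1.00 (limma). Of all genes 0.00993% were called (2 genes, and 0 with mouse as a fixed block).

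The test of the interaction, the LY6D difference in the basal gate minus that in the luminal gate, gave -3.27 ± 1.27 for Krt14, -2.42 ± 1.44 for Krt15, -2.38 ± 1.06 for Krt16 and -3.03 ± 1.26 for Krt17, all at an adjusted p of 0.999 (limma). The unadjusted p values were 0.0297 for Krt14, 0.127 for Krt15, 0.0507 for Krt16 and 0.0384 for Krt17, and 494 of 20135 genes had one under 0.05 while 0% were called. A smaller LY6D difference in basal than in luminal cells is therefore not shown at the threshold.

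**Figure D2:**
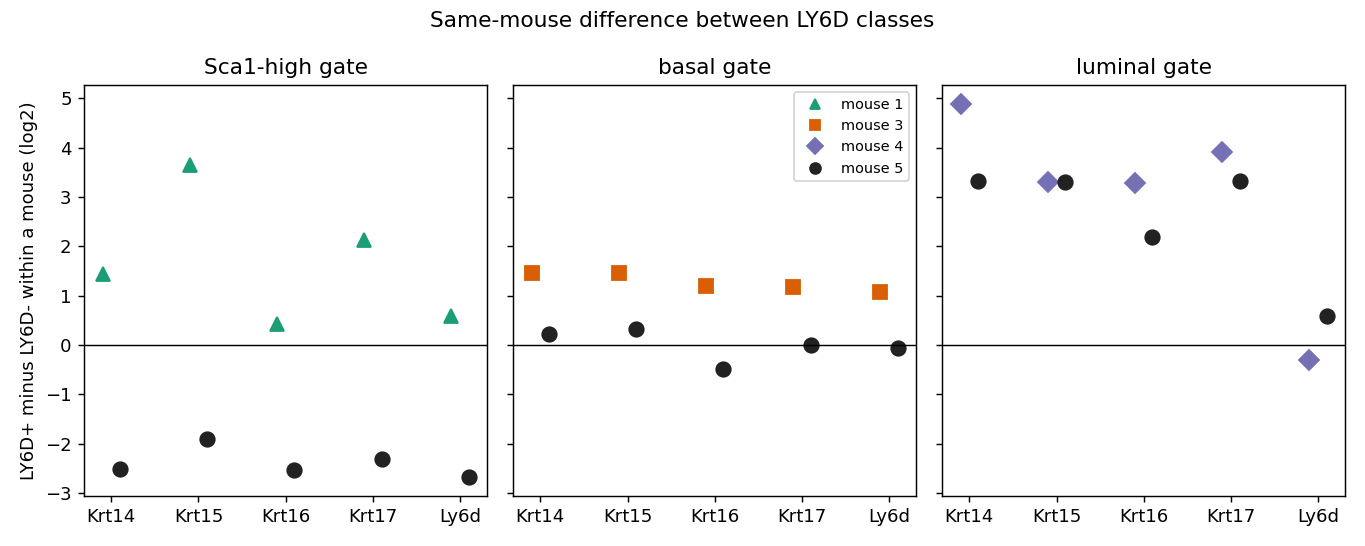
LY6D+ minus LY6D- difference within a mouse (log2, vertical axis) for the 4 keratins and the sort gene Ly6d in the 3 gates; each symbol is 1 mouse. Luminal differences of the keratins lie between 2.18 and 4.89 in both mice, while mouse 1 and mouse 5 point opposite ways in the Sca1-high gate.

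In the Sca1-high gate the 2 mice disagreed. Krt14 had 10.40 and 7.89 in LY6D+ and 8.96 and 10.41 in LY6D- Sca1-high cells (mice 1 and 5 each time). Krt15 had 10.92 and 7.72 in LY6D+ and 7.27 and 9.62 in LY6D- cells. Krt16 had 6.17 and 4.85 in LY6D+ and 5.73 and 7.39 in LY6D- cells, and Krt17 had 11.57 and 8.98 in LY6D+ and 9.45 and 11.30 in LY6D- cells. All 4 were higher in LY6D+ cells of mouse 1, by 0.44 (Krt16) to 3.65 (Krt15), and lower in LY6D+ cells of mouse 5, with differences of -1.90 (Krt15) to -2.54 (Krt16). Ly6d transcript went the same way in each mouse, with the differences of 0.58 and -2.67 given above. The fitted differences were -0.54 ± 0.90 for Krt14, 0.87 ± 1.02 for Krt15, -1.05 ± 0.75 for Krt16 and -0.10 ± 0.89 for Krt17 (adjusted p = 1.00 each, limma). Without the LY6D+ library of mouse 5 they were 0.72 for Krt14, 2.48 for Krt15, -0.22 for Krt16 and 1.20 for Krt17. In that library the endothelial marker list averaged 7.25 and the luminal list 6.22, against 5.48 to 6.49 and 7.54 to 7.82 in the other 3 Sca1-high libraries, and the part of this in the keratin values was not tested.

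Averaged over LY6D class, Sca1-high cells lay between the other gates. Gate means were 9.41 ± 1.22 in Sca1-high, 11.25 ± 0.71 in basal and 8.04 ± 2.52 in luminal cells for Krt14. For Krt15 they were 8.88 ± 1.70, 11.14 ± 0.78 and 7.80 ± 1.93, for Krt16 they were 6.04 ± 1.06, 9.02 ± 0.58 and 5.27 ± 1.75, and for Krt17 they were 10.32 ± 1.30, 12.17 ± 0.62 and 9.02 ± 2.17 in the same order of gates. Libraries of the Sca1-high and luminal gates overlapped for every keratin. The Sca1-high minus luminal difference was 1.38 ± 0.64 for Krt14, 1.08 ± 0.72 for Krt15, 0.77 ± 0.53 for Krt16 and 1.30 ± 0.63 for Krt17, with adjusted p values of 0.608 to 0.724 (limma), where 0.139% of genes were called. Exact two-sided permutation p values of 4 libraries against 4 ran from 0.314 to 0.514. Without the LY6D+ Sca1-high library of mouse 5 the differences were 2.0, 1.88, 1.10 and 1.95, and within mouse 5 alone they were 0.50, 0.60, 0.27 and 0.62 from Krt14 to Krt17.

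Against the basal gate, Sca1-high cells had lower fitted values, and of the 4 Krt16 had the largest gap. The Sca1-high minus basal difference was -1.84 ± 0.64 for Krt14, -2.26 ± 0.72 for Krt15, -2.98 ± 0.53 for Krt16 and -1.85 ± 0.63 for Krt17, with adjusted p values of 0.423, 0.383, 0.166 and 0.411 (limma). Of all genes 0.00993% were called. Krt16 was the 1 keratin of the 4 whose Sca1-high libraries all lay below the basal ones, which 2.26% of all genes did. Without the LY6D+ Sca1-high library of mouse 5 the differences were -1.21, -1.46, -2.65 and -1.20, and within mouse 5 they were -2.43, -2.90, -2.69 and -2.37, from Krt14 to Krt17. With mouse as a fixed block 104 genes in place of 28 were called between the Sca1-high and luminal gates, and 80 in place of 2 between the Sca1-high and basal gates, again without a keratin of the 4.

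Placed in order, the 6 groups gave the same outline for each gene. The LY6D+ basal group was highest, then the LY6D- basal, the LY6D+ luminal, both Sca1-high groups, and last the LY6D- luminal group. Libraries of neighbouring groups overlapped in 11 of the 20 steps of this order (5 steps for each gene). LY6D+ and LY6D- basal libraries overlapped for Krt16 and Krt17 but not for Krt14 and Krt15, and in the same direction 13.7% of all genes did not overlap. Libraries overlapped between the LY6D+ luminal group and the Sca1-high group next to it, and between the Sca1-high groups, for all 4 genes. LY6D- basal and LY6D+ luminal libraries overlapped for Krt14 but not for the other 3. The gaps between these group means were 0.74, 1.24, 2.21 and 1.05 from Krt14 to Krt17. How many of all genes lack overlap between these groups was not counted. The step down to LY6D- luminal cells measured 3.16 for Krt14, 2.30 for Krt15, 1.61 for Krt16 and 3.06 for Krt17. The SE of a difference between 2 groups was 0.90, 1.02, 0.75 and 0.89. Libraries did not overlap at this last step for any of the 4 genes, but the groups were ordered by these same values. The share of all genes without overlap at this step was not counted.

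LY6D- luminal cells differed between mice as well. Krt14 ranked at percentile 75.3 of the genes on the array of mouse 4 and 92.9 on that of mouse 5, Krt15 at 90.8 and 89.8, Krt16 at 16.7 and 70.9, and Krt17 at 94.5 and 95.9. In basal libraries all 4 keratins lay at percentile 97.0 or above. The Krt16 signal of 3.04 in mouse 4 was close to the lower quartile of the table, 2.98, so that fold changes against it depend on a dim probe set. Every other value of the 4 keratins was 4.77 or more.

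Over all gates together the LY6D+ minus LY6D- difference was 1.47 ± 0.52 for Krt14, 1.69 ± 0.59 for Krt15, 0.68 ± 0.43 for Krt16 and 1.37 ± 0.51 for Krt17, each at an adjusted p of 1.00 (limma), with 0% of genes called and 528 at an unadjusted p under 0.05. LY6D+ was higher in 5 of 6 same-mouse pairs for Krt14 and Krt15 and in 4 of 6 for Krt16 and Krt17. An exact two-sided sign-flip permutation test of the 6 pairs, added after the data were seen, gave p = 0.219 for Krt14, 0.156 for Krt15, 0.438 for Krt16 and 0.25 for Krt17, where the smallest p it allows is 0.0313. The Sca1-high minus luminal interaction was -4.65 ± 1.27 for Krt14, -2.43 ± 1.44 for Krt15, -3.78 ± 1.06 for Krt16 and -3.72 ± 1.26 for Krt17 (adjusted p = 1.00 each, limma). The Sca1-high minus basal interaction ran from -1.41 ± 1.06 (Krt16) to -0.02 ± 1.44 (Krt15).

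The 4 keratins varied together across libraries. Pearson's r over the 12 libraries was 0.992 between Krt14 and Krt17, 0.976 between Krt15 and Krt17 and 0.947 between Krt14 and Krt15. Krt16 was the loosest of the group, with r of 0.925 to Krt17, 0.923 to Krt14 and 0.891 to Krt15. After the group means were removed, r was still 0.974 for Krt14 with Krt17 and 0.723 for Krt15 with Krt16, so that the genes also shared the spread between libraries of a group. With 2 libraries per group, the r values after this step rest on 1 difference in each of 6 groups. For Krt14, Krt15 and Krt17 the largest of these was in LY6D+ Sca1-high cells, at -2.51, -3.20 and -2.59 (mouse 5 minus mouse 1). The mouse 5 library there is the one that stood apart above. The r values before it are descriptions of 12 points that share mice, gates and array processing.

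Among all genes, the closest pattern to Krt14 and to Krt15 was that of Krt17. Beyond the 4 keratins, the genes most like them recurred from 1 to the next. Cldn1, a tight-junction claudin, had r = 0.948 with Krt14 and 0.949 with Krt17 (rho = 0.944 and 0.916). Plaur, the urokinase receptor, had r between 0.924 and 0.942 with all 4 keratins, Serpinb5 (maspin) between 0.924 and 0.935, and F3 (tissue factor) between 0.914 and 0.944. Pdlim5, a PDZ and LIM domain protein of the actin cytoskeleton, had the highest r with Krt15 at 0.972. S100a6, a calcium-binding protein, was close to Krt14 at 0.941. Krt16 had 2 companions of its own among its 5 most similar genes, Dusp7 (r = 0.944), a phosphatase of MAP kinases, and Utp4 (r = 0.936), a factor of ribosome assembly.

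These companions were chosen by their likeness over the same 12 libraries, so their differences between groups are a description, with no test. Plaur had 10.51 and 10.81 in LY6D+ and 9.57 and 11.09 in LY6D- basal cells, against 7.81 and 8.64 in LY6D+ and 5.05 and 7.24 in LY6D- luminal cells. Every basal library of Plaur lay above every luminal one. The basal minus luminal difference was 3.37 ± 0.70 for Serpinb5, 3.31 ± 0.55 for Plaur, 2.69 ± 0.82 for F3, 2.61 ± 0.39 for Utp4, 2.47 ± 0.82 for Cldn1, 2.18 ± 0.30 for Dusp7, 1.44 ± 0.45 for S100a6 and 1.20 ± 0.33 for Pdlim5. In the luminal gate, the LY6D+ minus LY6D- difference was 3.08 ± 1.16 for Cldn1, 2.67 ± 1.16 for F3, 2.23 ± 0.99 for Serpinb5, 2.09 ± 0.78 for Plaur, 1.32 ± 0.64 for S100a6, 1.27 ± 0.46 for Pdlim5, 0.80 ± 0.42 for Dusp7 and 0.79 ± 0.54 for Utp4. Without the LY6D- luminal library of mouse 4 the values were 1.72 for Cldn1, 1.63 for F3, 1.49 for Serpinb5, 0.99 for Plaur and 0.31 for S100a6. Cldn1 was also among the 16 genes over 2 units in both mice.

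Neighbouring type I keratin genes had small fitted differences in the same comparisons, and most of them were dim in every library. In the RefSeq gene order (GRCm38.p6) of the type I cluster on chromosome 11, Krt14, Krt16 and Krt17 follow each other at places 24, 25 and 26 of 27. Krt15 is at place 21, Krt19 and Krt9 lie between it and Krt14, Krt13 comes before Krt15 and Krt42 after Krt17. Krt19, a keratin of simple epithelia, averaged 6.10 ± 0.79 in basal and 6.62 ± 0.46 in luminal cells, a difference of -0.52 ± 0.47 (adjusted p = 0.871, limma). Krt9, the chain of footpad skin, differed by -0.09 ± 0.19, Krt13, the chain of mucosal epithelia, by 0.40 ± 0.22, and Krt42 by 0.14 ± 0.31. Over the 22 other keratins of the cluster that were tested, basal minus luminal differences ran from -0.52 (Krt19) to 0.65 (Krt36, a hair keratin) with a median of -0.02, and luminal LY6D differences from -0.35 to 1.22 with a median of 0.16. Medians over all genes were -0.03 and 0.02. Of the 22, all but Krt19, Krt23 and Krt42 stayed at 5.45 or less in every library, with Krt9 at 3.61 to 4.18 and Krt13 at 3.48 to 4.81. A gene that is dim throughout has little room to differ, so small differences there are not comparable with those of the 4 bright keratins. The value of 1.22 ± 1.36 belonged to Krt23, whose libraries ranged from 3.57 to 8.28, and it was -0.07 without the LY6D- luminal library of mouse 4. Of the 23 type I keratins outside the 4 that were tested, Krt18 included, 0 were called in either direction between the gates.

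**Figure D3:**
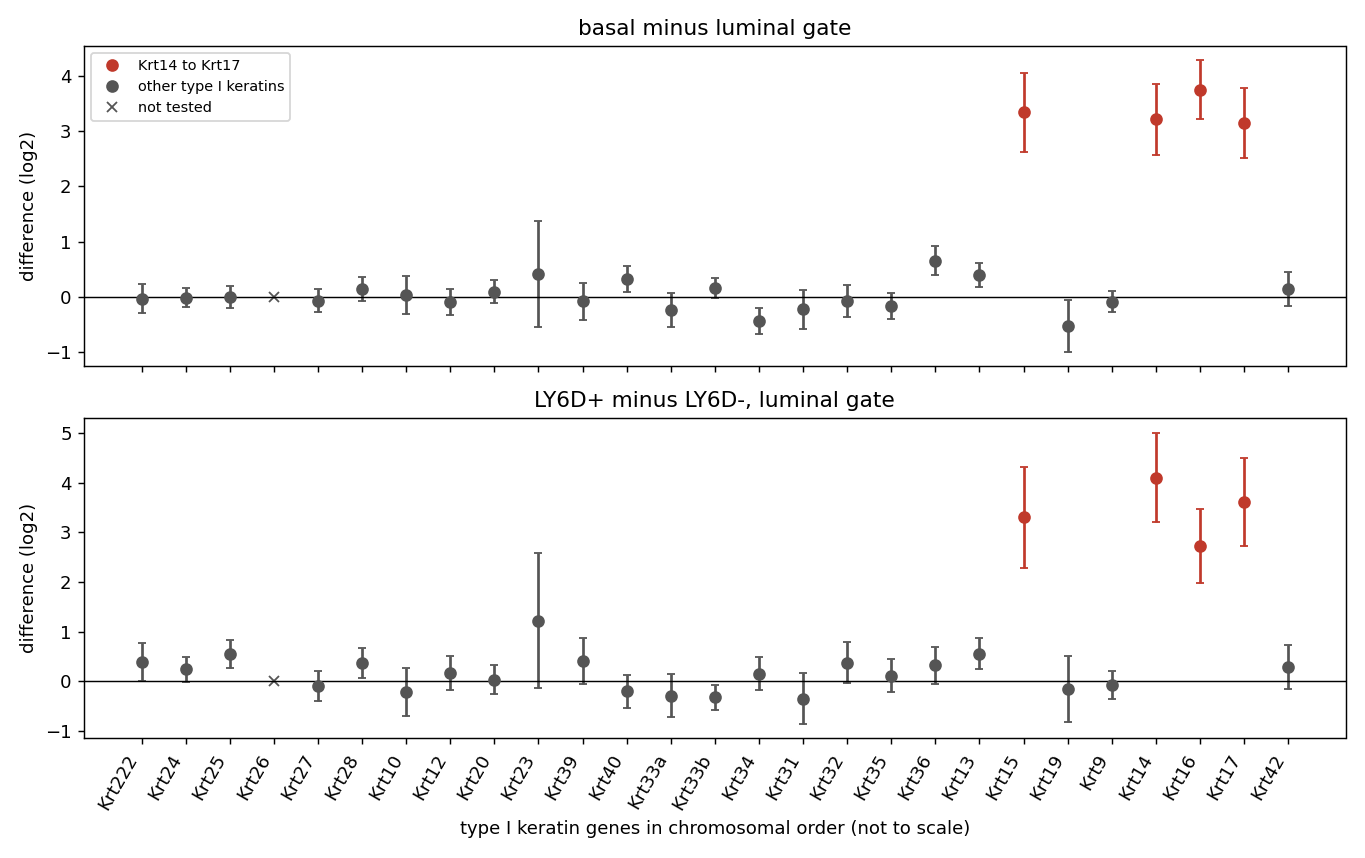
Difference on the log2 scale (points, with bars of 1 SE) for type I keratin genes in chromosomal order, basal minus luminal above and LY6D+ minus LY6D- in the luminal gate below; a cross marks a gene that was not tested. Krt14 to Krt17 lie above 2.7 in both panels, and the 22 other tested genes below 0.66 in the upper and below 1.23 in the lower panel. Most of these other genes were dim in every library.

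Type II partners were not called in these comparisons. Krt6a, the type II chain that accompanies Krt16 and Krt17 in wounded skin, had 7.62 and 6.35 in LY6D+ and 5.38 and 5.84 in LY6D- basal cells, against 4.80 and 4.66 in LY6D+ and 4.93 and 4.18 in LY6D- luminal cells. Its basal minus luminal difference was 1.66 ± 0.30 (adjusted p = 0.0616, limma), and its luminal LY6D difference 0.17 ± 0.42. Krt75, a hair follicle chain, was high in the basal libraries of mouse 5, at 7.0 in LY6D+ and 6.36 in LY6D- cells, and lay between 3.95 and 4.58 in the other 10 libraries. Krt6b differed by -0.14 ± 0.22. The 3 partners tested had 0 calls and a median of 1.28, where 0.417% of all genes were called with a median of -0.03. That median of 3 genes is the difference of Krt75, which was raised in the basal cells of mouse 5 alone. Among 20 other type II keratins tested, 0 were called and 8 were higher in basal cells, against 45.8% of all genes, with a median of -0.05, and Krt7, a chain of simple and ductal epithelia, had the largest difference at 1.14 ± 0.47 (adjusted p = 0.479).

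Of 18 tested genes that anchor keratin filaments to desmosomes and hemidesmosomes, 14 had higher values in basal than in luminal cells and 1 passed the test, with a median difference of 0.87. Over all genes 45.8% were higher in basal cells and 0.417% were called, with a median of -0.03. Itga6, on this list, encodes CD49f, on which the gates were sorted, so its rise in basal cells is no separate support. The gene that passed the test was Col17a1, a hemidesmosome collagen, which rose by 2.14 ± 0.32 (adjusted p = 0.0322, limma). It had 7.56 and 8.15 in LY6D+ and 6.61 and 8.0 in LY6D- basal cells, against 5.83 and 6.04 in LY6D+ and 4.71 and 5.19 in LY6D- luminal cells. In the luminal gate 12 of the 18 had a positive LY6D difference, with a median of 0.27 and 0 called, against 52.1% of all genes positive, a median of 0.02 and 0% called. The largest there was 2.10 ± 0.93 for Perp, a desmosome protein and p53 and p63 target, with 6.88 and 7.39 in LY6D+ and 3.36 and 6.72 in LY6D- luminal cells (mice 4 and 5). Without the LY6D- library of mouse 4 the Perp difference was 0.42. The most negative was -1.34 ± 0.55 for Pkp2, a plakophilin, which was -0.54 without the LY6D- library of mouse 5.

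Regulators of basal keratin genes were tested for 17 of 19 listed. None was called, 13 were higher in basal cells, and the median was 0.36, against 45.8% of all genes higher, 0.417% called and a median of -0.03. Egfr, the EGF receptor, differed by 2.85 ± 0.55 (adjusted p = 0.0725, limma) and Tfap2a, an AP-2 factor of epidermis, by 1.52 ± 0.76 (adjusted p = 0.601). In the luminal gate their median LY6D difference was 0.08, with 9 of 17 positive and 0 called, against a median of 0.02 and 52.1% positive over all genes. Of 9 stress and wound companions tested, 5 were higher in basal cells, the median was 0.44, and 1 was called, beside the same shares of all genes. It was Plaur (adjusted p = 0.0468, limma). Plaur is also among the companions above, chosen by likeness to the keratins over the same libraries, so its call is no separate support. In the luminal gate 6 of the 9 had a positive LY6D difference, with a median of 0.48 and 0 called. Il1a, an early cytokine of wounded keratinocytes, had 4.49 and 3.72 in LY6D+ and 3.39 and 8.46 in LY6D- luminal cells (mice 4 and 5). Its difference was -1.82 ± 1.28, and 0.72 without the LY6D- library of mouse 5.

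Other basal markers, with the 4 keratins left out, had smaller fitted differences between LY6D classes of luminal cells. Of 15 tested, 13 were higher in basal than in luminal cells, with a median of 1.00 and 1 called (Col17a1), against 45.8% of all genes higher, 0.417% called and a median of -0.03. Itga6, on this list, encodes CD49f, on which the gates were sorted, so its rise in basal cells is no separate support. Itga6, Itgb4, Col17a1, Dst, Dsc3 and Dsg3 are also on the anchoring list, so the lists are not independent. The mean signal of the basal list was 5.22 to 6.17 in basal and 4.56 to 5.14 in luminal libraries. Some of its genes were dim in every library, with Dsc3 at 3.46 or less and Dsg3 at 3.71 or less. Such genes have little room to differ, so the list median is not comparable with the differences of the bright keratins. In the luminal gate 12 of the 15 had a positive LY6D difference, with a median of 0.23 and 0 called (52.1% positive and a median of 0.02 over all genes), led by Snai2, a transcription factor of basal cells, at 1.83 ± 0.94. The list averaged 5.14 in mouse 4 and 4.90 in mouse 5 for LY6D+, against 4.75 and 4.56 for LY6D- luminal cells. Luminal markers had a median LY6D difference of 0.13 there, with 8 of 11 positive and 0 called. Between gates they had a basal minus luminal median of -0.38 with 1 call, Dpp4 (CD26), which fell by 2.22 (SE 0.33, adjusted p = 0.0336, limma).

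Among markers of other cell types, 4 myeloid genes and 1 urothelial gene were called between the basal and luminal gates, where 0.417% of all genes were called, 45.8% had a positive difference and the median was -0.03. The myeloid list averaged 4.72 to 6.41 in Sca1-high, 4.30 to 5.08 in basal and 6.73 to 8.22 in luminal libraries, and 4 of its 12 genes fell in basal against luminal cells, with differences of -4.26 for Cd68, a macrophage protein, -3.36 for Adgre1 (F4/80), -2.54 for Mrc1 and -2.30 for Ctss. The endothelial list averaged 5.48 to 7.25 in Sca1-high cells, 4.23 and 4.50 in LY6D+ and 6.47 and 6.58 in LY6D- basal cells, and 4.17 to 4.57 in luminal cells. All 12 of its genes had a positive basal minus luminal difference, with a median of 0.82 and 0 called. Between LY6D classes of luminal cells, where the keratins differed by 2.73 to 4.11, the myeloid list had a median difference of 0.20 (7 of 12 positive) and the endothelial list 0.02 (6 of 12 positive). The lymphoid list had -1.04 (2 of 8 positive, and a mean of 5.56 in LY6D- luminal cells of mouse 5, against 3.73 to 4.27 in the other 3 luminal libraries), the fibroblast list -0.50 (3 of 7) and the smooth muscle list -0.50 (0 of 6). None of these lists had a call in that comparison, where 52.1% of all genes were positive, 0% were called and the median was 0.02. The part of any of them in the keratin values was not tested.

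Between gates, the lymphoid, fibroblast and smooth muscle lists had basal minus luminal medians of -0.55, -0.36 and -0.50 with 0 calls. The seminal vesicle list had a median of -2.98 (0 of 6 positive, 0 called) and the urothelial list -0.03 with 1 of 6 called, Upk1a, a uroplakin, lower in basal cells. Medians against luminal cells in the Sca1-high gate were 1.04 for the endothelial list, with 1 of 12 called (Emcn, an endothelial sialomucin), and -0.89 for the luminal list, with 0 of 11 positive, against 0.07 over all genes, of which 59.8% were positive and 0.139% called.

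**Figure D4:**
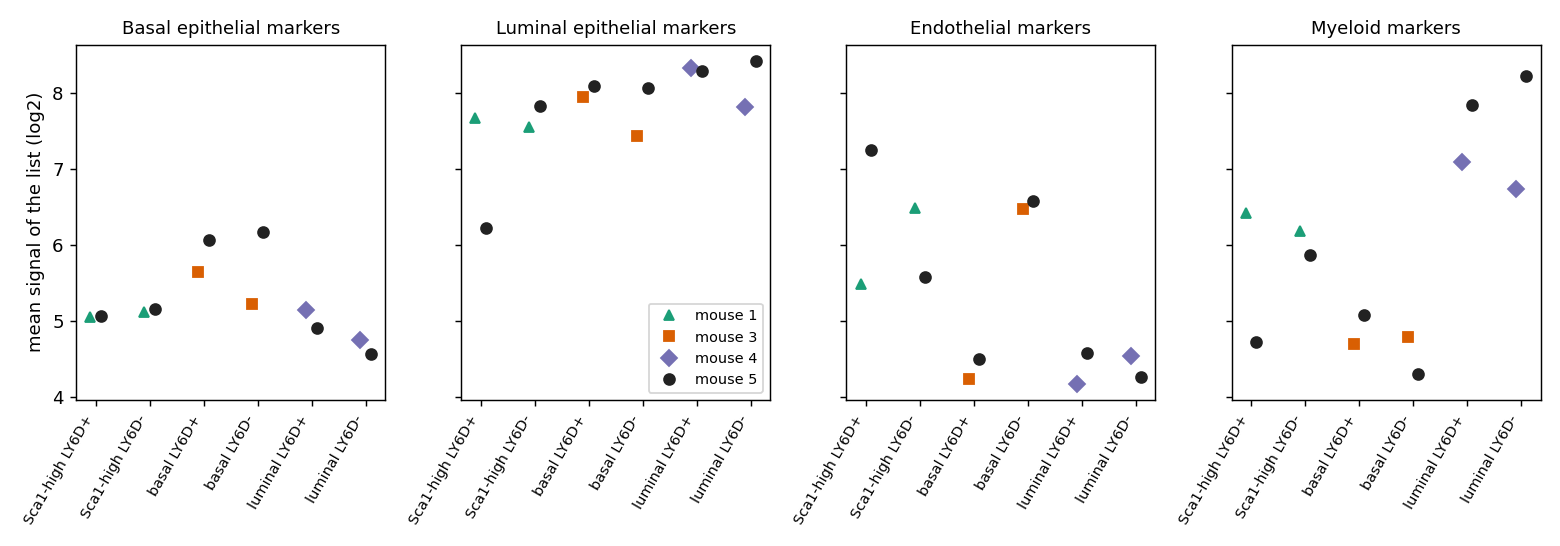
Mean log2 signal of 4 marker lists (vertical axis) in the 12 libraries by group (horizontal axis); symbols are mice. The endothelial list is at 4.23 and 4.50 in LY6D+ basal cells and at 6.47 and 6.58 in LY6D- basal cells, and the myeloid list is highest in the luminal gate.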

How the data were processed

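Total RNA of the sorted cells was purified on columns and amplified with a NuGEN Ovation kit, per the labels. The deposited log2 signals come 1 per probe set and array, and the tools RMA and oligo (no version given) are credited to the submitters' processing notes. RMA pulls libraries toward a common distribution, which limits differences that affect most genes. The values ran from 0.695 to 14.3 with array medians of 3.76 to 3.99, and were used without further scaling. The number of arrays limits the precision.

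Of 41345 probe sets, 23521 carried 1 symbol, 1814 carried several and 16010 had no entry in the annotation used. Where a gene had several probe sets (1082 genes), the brightest was kept. Genes with at least 2 arrays above the lower quartile of the table (2.98) were tested. limma 3.58.1 in R 4.3.3 was fitted with a mean per group (6 residual and 3.28 prior degrees of freedom), after a check on simulated data. Exact permutation tests used scipy 1.17.1.

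The mouse number pairs libraries because they come from the same animal. After group means were removed, LY6D+ and LY6D- libraries of a mouse correlated at 0.149 (Sca1-high), 0.407 (basal) and 0.0220 (luminal). The planned model had no mouse term, and mouse entered as a fixed or as a random block (consensus correlation 0.150) in alternatives.

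The 4 genes and all gene lists were chosen with earlier results of these data known. Genes named are the 4 keratins, the 5 most correlated genes of each, Ly6d, and from every list at most 4 genes that passed, or the 2 with the largest difference where none passed. Lists were described by counts and medians, with no set test. Neighbouring keratins, Trp63, Krt8 and Krt6b were added after their values were seen.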

Additional observations from a re-analysis of the deposited data

Results flagged for a closer look

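In the basal gate, 1 library stood below the other 3 for both Krt14 and Krt17. It was the LY6D- basal library of mouse 3, with 10.19 for Krt14 and 11.25 for Krt17, against 11.47 to 11.69 and 12.42 to 12.51 in the other 3. The gap to the nearest library, divided by the range of the gate, was 0.849 for Krt14 and 0.930 for Krt17, above Dixon's 95% critical value for 4 samples. Chance alone marks about 1 in 20 groups in this way. The same library had the lowest mean of the basal marker list in the gate (5.22) and an endothelial list mean of 6.47. The LY6D- basal library of mouse 5 had an endothelial list mean of 6.58 with Krt14 at 11.47, and the part of these markers in the keratin values was not tested.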

How the results depend on the processing

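Of 1016 recomputed values of the 4 keratins, 973 counted as unchanged, 23 reversed, 13 moved past the threshold and 7 fell short of it. Unchanged meant the same direction and side of the threshold. Values within mouse 5 alone had no test and counted as unchanged when close to the main value. Much of this share was fixed beforehand. Only the Krt16 basal minus luminal difference was called in the main fit, and all 7 losses were of that call. Leaving out a library outside a comparison cannot change its difference. The cause of the changes was not tested unless the alternative's construction shows it.

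The Krt16 basal minus luminal call was lost with mouse as a fixed replicate block (2.96, from mouse 5 alone), with arrays centred on their medians (3.79, adjusted p = 0.0552, limma) and without 3 libraries of mouse 5 that earlier results had set apart (LY6D+ basal, LY6D- basal and LY6D- luminal; 4.38, on fewer samples). With only the groups compared, or without both Sca1-high libraries of mouse 5, a setting added after the data were seen, Krt15 (3.34) and Krt17 (3.15) became calls between these gates. That added setting also brought the LY6D- basal minus luminal differences of Krt15 (4.55), Krt16 (4.94) and Krt17 (4.67) past the threshold. It turned the Sca1-high LY6D difference of Krt14 (1.44), Krt16 (0.44) and Krt17 (2.12), the Sca1-high minus luminal interaction of Krt15 (0.34), and the Sca1-high minus basal interaction of Krt14 (0.60), Krt15 (2.76), Krt16 (0.081) and Krt17 (1.53). Median centring turned the Sca1-high minus basal interaction of Krt15 (0.022).

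Counts of genes called moved as well. They were judged by the size of the change, a rule that cannot be compared with that of the keratins. Basal minus luminal gave 31 with median centring and 0 without the 3 libraries, in place of 84. Sca1-high minus luminal gave 104 with the fixed block, 17 with median centring, 13 with only the groups compared and 0 without the 3 libraries, in place of 28. Sca1-high minus basal gave 80 with the fixed block, 4 with trended robust moderation, 1 with probe sets averaged or only the groups compared, and 10 in the added setting, in place of 2. The luminal LY6D contrast gave 1 with a random block or without the 3 libraries and 2 with trended moderation, in place of 0. The basal LY6D contrast gave 0 with the fixed block, probe sets averaged, trended moderation, only the groups compared or without the 3 libraries, and 5 in the added setting, in place of 2. LY6D over all gates gave 1 in the added setting. In LY6D+ cells basal minus luminal gave 37 with the fixed block, 0 with only the groups compared or without the 3 libraries and 10 in the added setting, in place of 6. In LY6D- cells it gave 7 with the fixed block, 22 with the random block, 6 with median centring or only the groups compared, 0 without the 3 libraries and 41 in the added setting, in place of 12.

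Leaving out 1 library at a time, basal minus luminal ran from 2.71 to 3.72 for Krt14, 2.99 to 3.69 for Krt15, 3.32 to 4.18 for Krt16 and 2.82 to 3.47 for Krt17. The Sca1-high LY6D difference ran from -1.79 to 0.72 for Krt14, -0.73 to 2.48 for Krt15 and -1.39 to 1.20 for Krt17, the basal LY6D difference from -0.27 to 0.98 for Krt16 and -0.045 to 1.21 for Krt17, and the Sca1-high minus basal interaction from -1.62 to 1.58 for Krt15 and -1.98 to 0.61 for Krt17. Counts ran from 15 to 255 (basal minus luminal), 13 to 165 (Sca1-high minus luminal), 2 to 133 (Sca1-high minus basal), 0 to 70 (luminal LY6D), 0 to 3 (basal LY6D), 0 to 17 (Sca1-high LY6D), 0 to 2 (all gates), 0 to 15 (LY6D+ cells), 3 to 203 (LY6D- cells), and 0 to 11, 0 to 7 and 0 to 14 (interactions of basal and Sca1-high with luminal, and of Sca1-high with basal). The highest counts between basal and luminal cells and between luminal LY6D classes came without the LY6D- luminal library of mouse 4, and the lowest between basal and luminal cells without the LY6D+ basal library of mouse 3. No other call on the 4 keratins changed with the fixed or random block. With 2 libraries a group, a lone library was assumed to vary like the other groups.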
